A study of Mus musculus with 6 samples.

Results

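The CD3 chains, the CD8 coreceptor chains and a set of T cell lineage receptors are described here by their RNA levels. The cells were activated CD8+ T cells of murine spleen, given 2 µM blebbistatin (3 libraries) or vehicle (3 libraries) for 24 h. Blebbistatin is a small molecule that inhibits non-muscle myosin II and with it the pull on actin. The genes are Cd3e, Cd3d, Cd3g, Cd247, Cd8a, Cd8b1, Cd4, Thy1, Cd5 and Cd2, taken by gene symbol, and all 10 were found among the 47729 genes listed in each library. Levels are transcripts per 1e6 (TPM), as the authors deposited them. Testing required a mean of 1 TPM or more over the 6 libraries, which 9 of the 10 and 13372 genes in all reached, while Cd4 did not. The labels give no strain, genotype, age or sex, do not say how the cells were purified or activated, and do not name the vehicle. Nor do they tie replicates to animals or cultures, so p-values measure the spread between these libraries, which may be technical. RNA came from whole cell populations, so fewer cells of a type and less RNA per cell cannot be told apart.

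The T cell receptor recognises peptide on MHC molecules through its alpha and beta chains, which have short tails and signal through the associated CD3 gamma, delta, epsilon and zeta chains. CD8 on cytotoxic cells and CD4 on helper cells bind MHC class I and class II beside the receptor and bring the kinase LCK to it. CD2 and CD5 tune the strength of that signal, and THY1 is a small glycolipid-anchored protein that covers the surface of mouse T cells.

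Of the 9 genes tested, Thy1 fell with blebbistatin and the other 8 did not pass the test. The test was limma on log2(TPM + 1) with Benjamini-Hochberg adjustment at 0.05 over all 13372 genes, of which 1.82% passed in either direction, 1.40% higher and 0.426% lower with blebbistatin. A correction for length and GC moved that split from 187 higher and 57 lower genes to 307 and 236. Without blebbistatin 2 the excess turned, with 496 higher and 594 lower. An unadjusted p under 0.05 was reached by 2 of the 9 genes and by 22.9% of all genes tested. The median log2 fold change was 0.03 over the 9 genes and also 0.03 over all genes tested. The 3 genes whose groups did not overlap were Thy1 (lower with blebbistatin), Cd8a and Cd8b1 (both higher). Groups did not overlap in 31.0% of all genes tested, 18.0% higher and 13.0% lower, so 3 of 9 is close to the background.

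**Figure D1:**
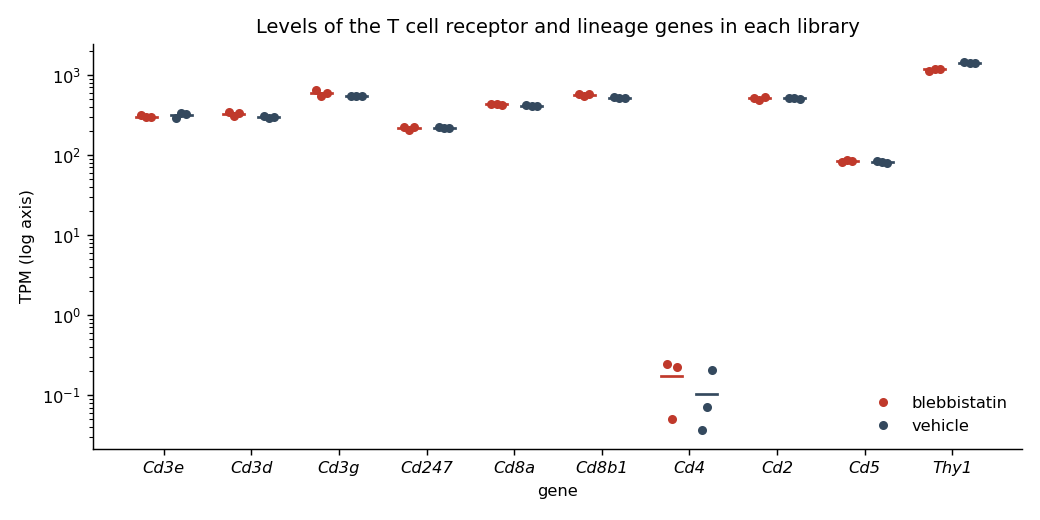
TPM on a log axis of each gene in 3 blebbistatin libraries (red, left of each pair) and 3 vehicle libraries (dark blue, right), with points for libraries and bars for means. Thy1 lies at 1128 to 1194 TPM with blebbistatin and at 1392 to 1432 TPM with vehicle, and Cd4 lies below 1 TPM in every library.

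The libraries held an implied 18.5 to 19.9 M fragments each (M, 1e6), so that 1 TPM of a 2 kb transcript stands for 17.7 to 18.8 of them. On the first principal component, with 42.8% of the variance, the blebbistatin libraries 1, 2 and 3 lay at 30.5, 0.23 and 14.5, while the vehicle libraries lay between -16.4 and -13.4. Blebbistatin 1 was thus farthest from the vehicle libraries and blebbistatin 2 nearest. The count of genes passing in limma, 244 with all libraries, was 120, 1090 and 3 without blebbistatin 1, 2 or 3, and 13, 11 and 7 without vehicle 1, 2 or 3.

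The cells carried the transcripts of a CD8 alpha beta population in both groups. Cd8a (ENSMUSG00000053977, chromosome 6, 71373427 to 71379173 in GRCm38, plus strand) encodes the alpha chain, which binds LCK, and Cd8b1 (ENSMUSG00000053044, chromosome 6, 71322788 to 71337494, plus strand) the beta chain that pairs with it on conventional cytotoxic cells. Both are protein-coding, and their starts lie 50.6 kb apart on the same strand. Cd8a had 433, 429 and 426 TPM in the blebbistatin libraries, against 415, 409 and 412 TPM in the vehicle libraries. Each blebbistatin library thus lay above each vehicle library, by a margin of 4.20% between the means. The spread within groups was small, with a coefficient of variation of 0.812% with blebbistatin and 0.729% with vehicle. The log2 fold change was 0.06 (SE 0.04, 95% interval -0.04 to 0.15) and did not pass (adjusted p = 0.406 by limma with Benjamini-Hochberg). With the length and GC correction the sign turned, to -0.053.

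Cd8b1 had 572, 552 and 573 TPM with blebbistatin, against 529, 522 and 514 TPM with vehicle. The groups again did not overlap, and blebbistatin 2 was the lowest of its group. The log2 fold change was 0.12 (SE 0.04, 95% interval 0.02 to 0.22), which had an unadjusted p of 0.0286 by limma and did not pass over all genes (adjusted p = 0.177). The ratio of Cd8b1 to Cd8a within a library does not depend on the total by which a library is scaled. It was 1.32 ± 0.0295 with blebbistatin and 1.27 ± 0.0161 with vehicle (mean ± SD, n = 3 each), and the groups did not overlap. An exact two-sided permutation test gave p = 0.1, the smallest that 3 libraries against 3 allow, and 0.45 after Benjamini-Hochberg adjustment over the 9 ratios computed.

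Cd4 (ENSMUSG00000023274, chromosome 6, 124864692 to 124888221, minus strand), the coreceptor of helper cells, was near the limit of detection. It had 0.244, 0.0511 and 0.227 TPM with blebbistatin, against 0.0363, 0.0712 and 0.205 TPM with vehicle, and the groups overlapped. With the longest annotated transcript these levels rest on about 1.0 to 6.9 fragments a library, so no difference between groups was detectable at this depth. Cd4 stood at 0.000119 to 0.000565 of the Cd8a level with blebbistatin and at 8.8e-05 to 0.000497 of it with vehicle. These ranges overlapped (exact two-sided permutation test, p = 0.5, where the smallest possible is 0.1). Among the factors that set the choice between these coreceptors, named outside the naming rule after their values were seen, Runx3, which silences Cd4 in CD8 cells, was at 117 ± 11.7 and 124 ± 7.96 TPM with blebbistatin and vehicle. Zbtb7b, the factor of the CD4 lineage, was at 14.8 ± 2.30 and 13.7 ± 0.302 TPM with blebbistatin and vehicle, and neither passed (adjusted p = 0.534 and 0.627 by limma).

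The signalling chains of the receptor did not pass in either direction. Cd3g, Cd3d and Cd3e form a cluster on chromosome 9, and all are protein-coding. Cd3g (ENSMUSG00000002033, 44969572 to 44980431, minus strand) encodes the gamma chain and Cd3d (ENSMUSG00000032094, 44981793 to 44987052, plus strand) the delta chain, each of which pairs with epsilon. Their starts lie 1362 bases apart on opposite strands, so the pair is transcribed divergently. Cd3e (ENSMUSG00000032093, 44998743 to 45009590, minus strand), the epsilon chain shared by both pairs, starts 27.8 kb from Cd3d. The promoter windows of these neighbours are shown because the genes share a cluster and have log2 fold changes above 0 for Cd3g and Cd3d and below 0 for Cd3e, none of which passed. They come from RefSeq on GRCm38.p6, run from 250 bases before to 50 after the start, and are written 5′ to 3′ on the strand of the gene. Capitals mark AGGAAG on either strand (CTTCCT on the other), a core of ETS factor motifs, and CANNTG, the E-box.
Cd3g, chr9:44980382-44980681, minus strand: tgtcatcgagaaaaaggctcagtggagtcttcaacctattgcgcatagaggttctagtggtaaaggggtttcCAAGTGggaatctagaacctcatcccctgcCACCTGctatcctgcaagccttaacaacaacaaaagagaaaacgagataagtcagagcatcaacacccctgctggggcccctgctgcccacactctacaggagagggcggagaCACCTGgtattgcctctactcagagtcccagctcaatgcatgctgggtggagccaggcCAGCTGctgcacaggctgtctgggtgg
Cd3d, chr9:44981536-44981835, plus strand: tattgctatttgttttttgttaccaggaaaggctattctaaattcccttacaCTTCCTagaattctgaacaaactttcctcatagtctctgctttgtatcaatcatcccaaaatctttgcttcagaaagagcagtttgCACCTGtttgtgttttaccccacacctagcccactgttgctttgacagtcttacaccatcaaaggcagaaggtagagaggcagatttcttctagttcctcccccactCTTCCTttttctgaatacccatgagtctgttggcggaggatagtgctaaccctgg
Cd3e, chr9:45009562-45009861, minus strand: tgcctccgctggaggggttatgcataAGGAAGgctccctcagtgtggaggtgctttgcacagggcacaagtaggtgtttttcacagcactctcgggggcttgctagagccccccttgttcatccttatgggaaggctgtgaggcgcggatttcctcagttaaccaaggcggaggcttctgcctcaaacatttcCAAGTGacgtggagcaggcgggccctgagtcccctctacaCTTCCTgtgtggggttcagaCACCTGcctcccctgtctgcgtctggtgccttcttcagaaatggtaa
The windows of Cd3g and Cd3d do not touch, with 854 bases between them. AGGAAG occurred 0 times in the Cd3g window and 2 times each in those of Cd3d and Cd3e, and 35.4% of the 32851 promoter windows in the table hold it. The E-box occurred 4 times at Cd3g, 1 time at Cd3d and 2 times at Cd3e, and 72.3% of windows hold it. TATAAA, searched on both strands, was found in none of these 3 windows and in 13.6% of all windows. TGTGGT, a core of RUNX motifs searched on both strands, was also in none of the 3, against 16.8% of all windows. These motifs do not overlap in the windows printed. The table held 6 of the 10 genes, and Cd8b1, Cd4, Thy1 and Cd2 were not among them.

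Cd3g had 642, 538 and 592 TPM with blebbistatin, against 542, 544 and 539 TPM with vehicle. The vehicle libraries were nearly equal (coefficient of variation 0.487%), while blebbistatin 1 and 3 lay above them and blebbistatin 2 just below. The log2 fold change was 0.12 (SE 0.07, 95% interval -0.04 to 0.28, adjusted p = 0.322 by limma with Benjamini-Hochberg). Cd3d had 346, 303 and 329.6 TPM with blebbistatin, against 305, 293 and 297 TPM with vehicle, in the same order of blebbistatin libraries. Its log2 fold change was 0.13 (SE 0.06, 95% interval -0.01 to 0.27, adjusted p = 0.248). For both genes, as for Cd3e, the order was blebbistatin 1, then 3, then 2, which is also the order on the first principal component, and the part of that axis in these values was not tested. The log2 fold changes of Cd3g and Cd3d were 0.06 and 0.08 without blebbistatin 1 (adjusted p = 0.529 and 0.388 by limma) and 0.19 and 0.18 without blebbistatin 2 (adjusted p = 0.0688 and 0.0687). With the length and GC correction that of Cd3g was 0.05.

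Cd3e had 312, 294 and 299.96 TPM with blebbistatin, against 285, 331 and 327 TPM with vehicle. Its widest spread was in the vehicle group, where vehicle 1 lay below all blebbistatin libraries and vehicle 2 and 3 above them. The log2 fold change was -0.06 (SE 0.07, 95% interval -0.22 to 0.10, adjusted p = 0.649 by limma). It moved to -0.12 without vehicle 1. The Cd3d to Cd3e ratio was 1.08 ± 0.0418 with blebbistatin and 0.954 ± 0.0997 with vehicle, and the Cd3g to Cd3e ratio 1.95 ± 0.116 and 1.73 ± 0.146 with blebbistatin and vehicle (mean ± SD, n = 3 each). Both ratios overlapped between groups, and vehicle 1, with the lowest Cd3e level, had the highest ratio of its group (exact two-sided permutation test, p = 0.2 each, adjusted p = 0.45).

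Cd247 (ENSMUSG00000005763, chromosome 1, 165788681 to 165877277, plus strand) encodes the zeta chain, which carries most of the tyrosine motifs that recruit ZAP70. It had 220.3, 207 and 226 TPM with blebbistatin, against 225, 214 and 219 TPM with vehicle. The groups overlapped over nearly their whole range, with a log2 fold change of -0.01 (SE 0.05, 95% interval -0.13 to 0.11, adjusted p = 0.909 by limma). The sign turned with quantile scaling (0.025) and without blebbistatin 2 (0.023) or vehicle 1 (0.0066). Exons of Gm16565 on the same strand and of Pou2f1 on the opposite strand cover 60.3% of its annotated exon bases, and the library kit does not mark strand. Reads there cannot be assigned with certainty. Pou2f1 lay at 14.1 to 16.97 TPM with blebbistatin and 14.1 to 15.1 TPM with vehicle, and Gm16565 at 1.59 to 2.52 TPM with blebbistatin and 1.26 to 2.26 TPM with vehicle, all far below Cd247. In Cd3e, 3.3% of exon bases are shared with another gene, and in the other 8 genes 0 are.

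**Figure D2:**
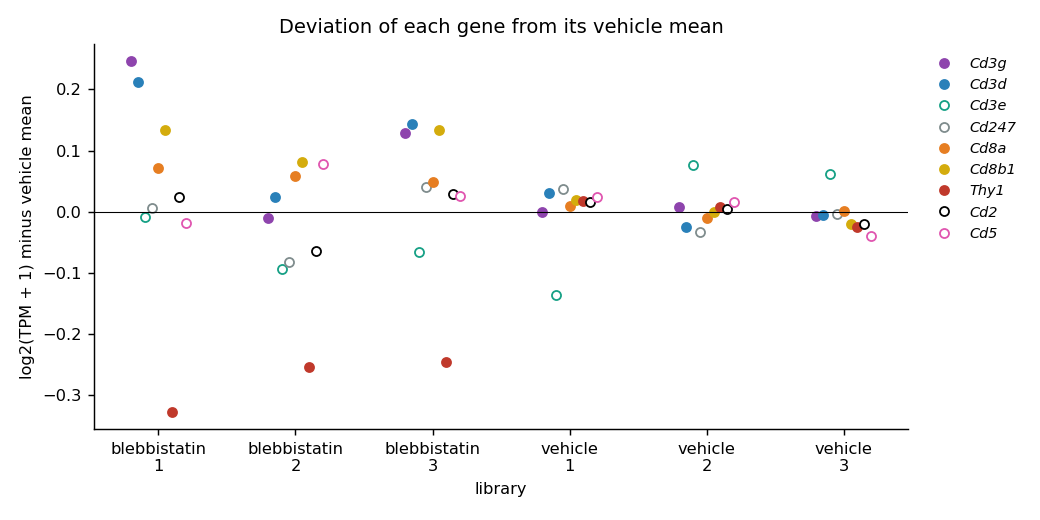
Difference on the log2(TPM + 1) scale of each gene from its own vehicle mean in every library, blebbistatin 1 to 3 on the left and vehicle 1 to 3 on the right. Cd3g and Cd3d stand highest in blebbistatin 1 (0.25 and 0.21) and near 0 in blebbistatin 2, while Thy1 lies between -0.33 and -0.25 in all 3 blebbistatin libraries.

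Thy1 (ENSMUSG00000032011, chromosome 9, 44043384 to 44048579, plus strand, protein-coding) was the gene with the highest level of the set and the one that fell. It had 1128, 1187 and 1194 TPM with blebbistatin, against 1432, 1424 and 1392 TPM with vehicle. The means were 1169.7 ± 36.0 and 1416 ± 21.4 TPM with blebbistatin and vehicle (SD, n = 3 each), and the lowest vehicle library stood well above the highest blebbistatin library. The log2 fold change was -0.28 (SE 0.04, 95% interval -0.38 to -0.17), or 0.826 of the vehicle level, with an adjusted p of 0.0377 by limma with Benjamini-Hochberg, and 3 of 3 blebbistatin libraries were lower. Relative to Cd3e, Thy1 stood at 3.88 ± 0.229 with blebbistatin and 4.52 ± 0.43 with vehicle, with no overlap (exact two-sided permutation test, p = 0.1, the smallest possible, adjusted p = 0.45). The log2 difference of this ratio was -0.22, and -0.14 without vehicle 1, the library with the lowest Cd3e level.

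The call of Thy1 sat close to the threshold. It passed without blebbistatin 1 (adjusted p = 0.0362 by limma) or blebbistatin 2 (0.0235), and was lost without blebbistatin 3 (0.14) and without vehicle 1 (0.17), 2 (0.157) or 3 (0.143), where the log2 fold change stayed between -0.29 and -0.27. It was also lost with quantile scaling (-0.22, adjusted p = 0.052), after the length and GC correction (-0.19, adjusted p = 0.0714), without the mean-variance trend (adjusted p = 0.0952) and with no minimum level (adjusted p = 0.103).

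The genes whose profiles over the 6 libraries lay nearest to Thy1 were Pgam1, Arhgdia, Slbp, Cdca8 and Zfp414, among 6187 genes averaging 20 TPM or more. Nearness was the root mean square difference between log2(TPM + 1) profiles centred on their own means, which ran from 0.0146 for Pgam1 to 0.0298 for Zfp414. This is a description over 6 libraries with no test, and each profile holds the difference between the groups. Pgam1, a glycolytic mutase, stood at 786 ± 27.8 TPM with blebbistatin and 968 ± 12.6 TPM with vehicle. Arhgdia stood at 745 ± 35.5 TPM with blebbistatin and 881 ± 15.6 TPM with vehicle. Pgam1 and Cdca8, a chromosomal passenger subunit, passed the limma test (adjusted p = 0.0327 and 0.0451), though without any 1 of blebbistatin 3 and vehicle 1 to 3 their adjusted p was 0.136 to 0.17, and Cdca8 also missed without blebbistatin 1 (0.054). Both also missed with quantile scaling (0.0575 and 0.0683), without the mean-variance trend (0.0839 and 0.0892) and with no minimum level (0.077 and 0.0738). Arhgdia, Slbp, which binds histone mRNAs, and Zfp414 did not pass (adjusted p = 0.0658, 0.0578 and 0.0658 by limma).

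Cd5 and Cd2 did not pass, with means that differed by 2.05% and -0.209% between blebbistatin and vehicle. Cd5 (ENSMUSG00000024669, chromosome 19, 10718143 to 10738974, minus strand), which restrains receptor signalling, had 80.7, 86.5 and 83.3 TPM with blebbistatin, against 83.2, 82.7 and 79.5 TPM with vehicle. Its log2 fold change was 0.03 (SE 0.05, 95% interval -0.10 to 0.15, adjusted p = 0.774 by limma). Cd2 (ENSMUSG00000027863, chromosome 3, 101275899 to 101287939, minus strand), the adhesion receptor for CD48, had 520.1, 489 and 522 TPM with blebbistatin, against 517, 513 and 504 TPM with vehicle. Its log2 fold change was -0.0036 (SE 0.05, 95% interval -0.11 to 0.11, adjusted p = 0.973). As folds, the intervals span 0.925 to 1.08 for Cd2 and 0.935 to 1.11 for Cd5, and the libraries of the groups overlapped for both. The sign of Cd5 turned with median-ratio scaling and that of Cd2 with quantile scaling.

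**Figure D3:**
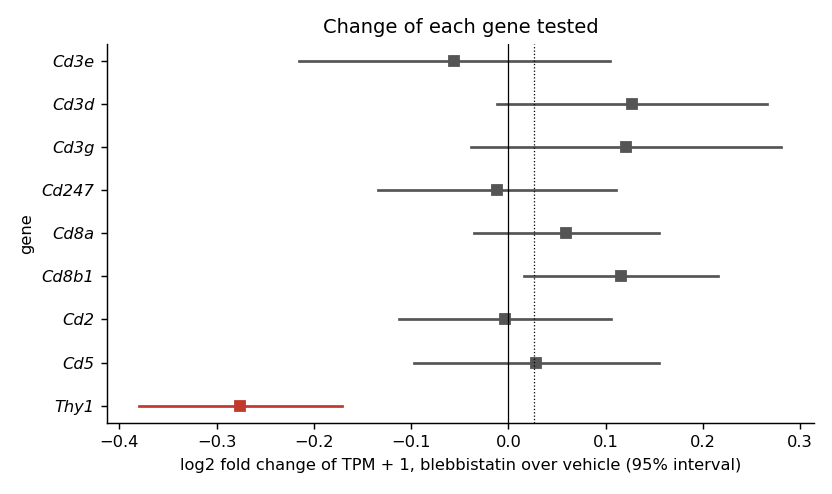
Log2 fold change of TPM + 1, blebbistatin over vehicle, for the 9 genes tested, with 95% intervals from limma, the gene that passed in red, a solid line at 0 and a dotted line at the median of all genes tested (0.03). Thy1 lies at -0.28 and the other 8 genes between -0.06 and 0.13.

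TPM corrects for transcript length, so levels were set in order across genes. That length depends on which transcripts are taken, so close places are not sure. The mean and the longest annotated transcript have 734 and 1617 bases for Cd3d and 828 and 1735 for Thy1. The place of Cd247 is less sure, as other genes cover 60.3% of its exon bases. In blebbistatin 1 its coverage was also 134 at an FPKM of 103, against 855 at an FPKM of 146 for Cd3e. Coverage per FPKM was lower than that of Cd3e, to a smaller degree, for Cd2 (935 at 244) and Cd8a (889 at 203). The places of Cd2 and Cd8a are thus also less sure. With blebbistatin the order from the top was Thy1, Cd3g, Cd8b1, Cd2, Cd8a, Cd3d, Cd3e, Cd247, Cd5 and Cd4. With vehicle it was the same except that Cd3e stood above Cd3d. Thy1 ranked 117 among the 13372 genes by mean level over all libraries, Cd3g 220, Cd8b1 228 and Cd2 245, while Cd5 ranked 2098. With blebbistatin the ranges over libraries of Cd3g and Cd8b1 overlapped, as did those of Cd3d and Cd3e, although within a library Cd3d was above Cd3e in 3 of 3. With vehicle the ranges of Cd8b1 and Cd2 overlapped, although Cd8b1 was above Cd2 in 3 of 3 libraries, and so did those of Cd3e and Cd3d. The CD3 chains thus had unequal TPM, with Cd3g at 1.95 times Cd3e with blebbistatin and 1.73 times with vehicle. Cd247 stood at 0.721 ± 0.0272 and 0.702 ± 0.0764 of Cd3e with blebbistatin and vehicle (exact two-sided permutation test, p = 0.6).

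**Figure D4:**
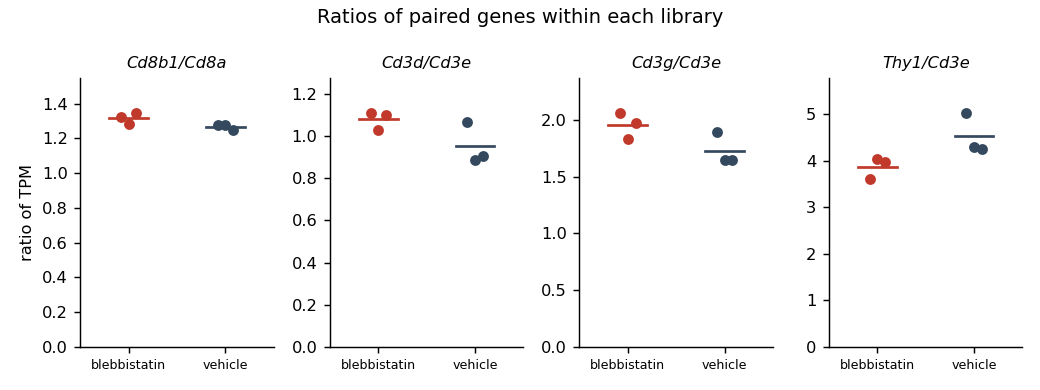
Ratio of TPM of 2 genes within each library, blebbistatin left and vehicle right in each panel, with points for libraries and bars for means, on linear axes from 0. The groups do not overlap for Cd8b1/Cd8a (1.29 to 1.34 with blebbistatin, 1.25 to 1.28 with vehicle) and Thy1/Cd3e (3.61 to 4.04 with blebbistatin, 4.25 to 5.02 with vehicle), and overlap for Cd3d/Cd3e and Cd3g/Cd3e.

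The other ratios gave no difference that passed. Cd8a stood at 1.42 ± 0.0361 of Cd3e with blebbistatin and 1.32 ± 0.12 with vehicle (exact two-sided permutation test, p = 0.3). Cd2 stood at 1.69 ± 0.0438 of Cd3e with blebbistatin and 1.63 ± 0.155 with vehicle (exact permutation p = 0.6), and Cd5 at 0.277 ± 0.0177 and 0.262 ± 0.0264 of it with blebbistatin and vehicle (exact permutation p = 0.4). Adjusted over the 9 ratios, p-values of the exact tests ran from 0.45 to 0.6.

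The antigen-binding chains of the receptor did not pass either. Of 4 constant genes tested, 0 passed in limma over all genes and 1 had an unadjusted p under 0.05 (22.9% of all genes tested did), with a median log2 fold change of 0.06. Trac, the alpha constant gene, had 755, 696 and 736 TPM with blebbistatin, against 702, 683 and 682 TPM with vehicle, and the groups overlapped (adjusted p = 0.344 by limma). Trbc2, a beta constant gene with a near-identical copy in Trbc1, was at 1089.6 ± 16.6 TPM with blebbistatin and 1117 ± 28.6 TPM with vehicle. Trbc1 was at 659 ± 10.4 TPM with blebbistatin and 645 ± 4.36 TPM with vehicle, and reads of the pair may be split between them.

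Of 14 kinases, phosphatases and adaptors bound to CD3, CD2 or the coreceptors, 0 passed in limma over all genes and 4 had an unadjusted p under 0.05, against 22.9% of all genes tested. Their median log2 fold change was -0.03, with 7 values above 0 and 7 below. Lck, the kinase carried by CD8, had 487, 516 and 542 TPM with blebbistatin, against 549, 562 and 557 TPM with vehicle, with no overlap (log2 fold change -0.11, SE 0.05, adjusted p = 0.246). Ptprc, which encodes CD45 and activates LCK, had 860.3, 760.1 and 786 TPM with blebbistatin, against 679, 714 and 721 TPM with vehicle (0.18, SE 0.06, adjusted p = 0.142 by limma).

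Among 15 other T lineage surface antigens, 1 gene fell and 0 rose, where 1.82% of all genes tested passed in either direction. The median log2 fold change was 0.12, with 10 values above 0. An unadjusted p under 0.05 by limma was reached by 8 of the 15, against 22.9% of all genes tested. In 10 of the 15 the groups did not overlap, against 31.0% of all genes tested. The gene that fell was Spn, which encodes CD43, a large mucin-like glycoprotein of the T cell surface. It had 162, 164 and 156 TPM with blebbistatin, against 215, 224 and 230.5 TPM with vehicle, a log2 fold change of -0.47 (SE 0.05, adjusted p = 0.0156 by limma). Without blebbistatin 3, vehicle 1, 2 or 3, its adjusted p lay between 0.0723 and 0.089. Cd52, a small glycolipid-anchored antigen, was at 1201 ± 35.7 TPM with blebbistatin and 1107 ± 40.7 TPM with vehicle (0.12, adjusted p = 0.208). Ptprcap, which associates with CD45, had 234, 507 and 367 TPM with blebbistatin, against 575, 556 and 551 TPM with vehicle, and varied widely with blebbistatin, lowest in blebbistatin 1 (-0.67, SE 0.24, adjusted p = 0.176). It did not pass, although the groups did not overlap.

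Of 17 factors of the T lineage and of the CD4 or CD8 choice, 1 rose and 0 fell, where 1.82% of all genes tested passed in either direction. Their median log2 fold change was 0.02. Tcf7, which encodes TCF1, had 257, 263 and 274 TPM with blebbistatin, against 181, 184 and 192 TPM with vehicle (0.51, SE 0.05, adjusted p = 0.0156 by limma). Without blebbistatin 3, vehicle 1, 2 or 3 its adjusted p lay between 0.0673 and 0.089. Chd4, a chromatin remodeller, was at 237 ± 4.98 TPM with blebbistatin and 219.7 ± 15.8 TPM with vehicle (0.11, adjusted p = 0.319).

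**Figure D5:**
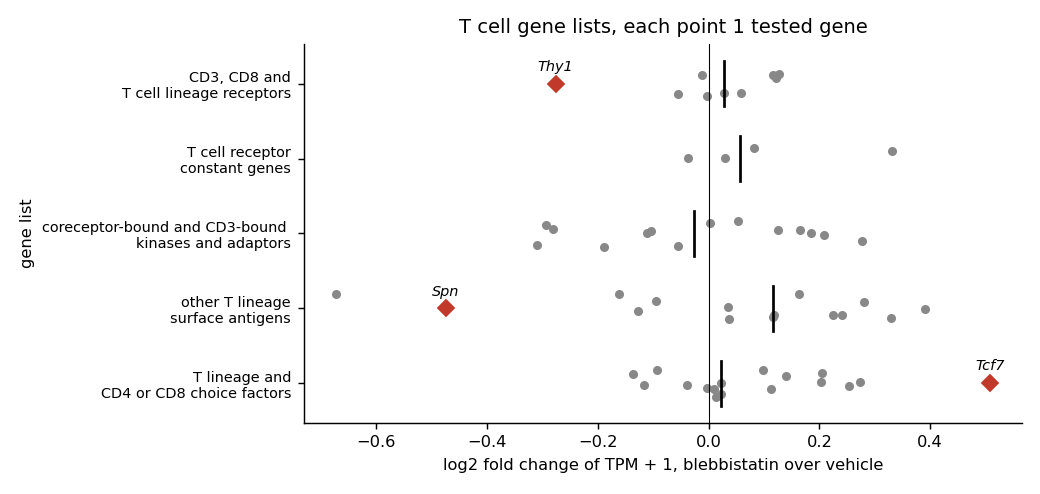
Log2 fold change of TPM + 1, blebbistatin over vehicle, of each tested gene in 5 lists, with red diamonds for genes that passed limma at an adjusted p of 0.05, grey points for the others (spread vertically for legibility) and black bars for list medians. The medians lie between -0.03 and 0.12, and Thy1, Spn and Tcf7 are the genes that passed.

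Of other cell types, some markers of platelets and some of B cells moved with the groups. The 9 platelet and erythroid markers summed to 112 to 129.9 TPM with blebbistatin, against 51.6 to 62.0 TPM with vehicle. Of the 6 tested, 4 rose, against 1.40% of all genes tested. The erythroid gene Hba-a1, named after its values were seen, did not (-0.15, adjusted p = 0.564 by limma). Ppbp and Pf4, platelet chemokines, stood at 38.4 ± 1.64 and 64.2 ± 9.04 TPM with blebbistatin, against 13.1 ± 2.00 and 29.9 ± 2.21 TPM with vehicle, and Treml1, a platelet receptor, at 2.48 to 3.33 TPM with blebbistatin, against 0.709 to 1.24 TPM with vehicle. Their adjusted p by limma was 0.0079, 0.0156 and 0.0388, with no minimum level 0.0359, 0.0467 and 0.0834, and without blebbistatin 3 it was 0.059, 0.089 and 0.118. Without vehicle 1, 2 or 3 it was 0.0181 to 0.0367 for Ppbp, 0.0587 to 0.0899 for Pf4 and 0.0964 to 0.149 for Treml1, and without blebbistatin 1 0.0777 for Treml1. The 11 B cell markers summed to 651 to 746 TPM with blebbistatin and 621 to 643 TPM with vehicle, mostly from Ighm (477 ± 12.6 TPM with blebbistatin, 499.96 ± 7.77 TPM with vehicle). H2-Eb1, an MHC class II chain, and Igkc, the kappa constant segment, rose by 1.18 and 0.80 on the log2 scale (adjusted p = 0.0203 and 0.0284 by limma). Without any 1 of blebbistatin 3 and vehicle 1 to 3 their adjusted p was 0.0718 to 0.131, and for Igkc it was 0.0613 without blebbistatin 1. With no minimum level it was 0.0601 for H2-Eb1 and 0.0734 for Igkc. The class II chains H2-Aa and H2-Ab1, named after their values were seen, did not pass. Their log2 fold changes were 0.90 and 0.04 (adjusted p = 0.0511 and 0.887 by limma), and the groups overlapped for H2-Ab1 and not for H2-Aa. Among defining B cell genes, Ms4a1 and Pax5 stayed below 0.4 TPM in all 6 libraries. The receptor chains Cd79a and Cd79b, named after their values were seen, stood at 0.944 to 1.59 and 12.9 to 16.5 TPM with blebbistatin, against 0.363 to 0.425 and 9.69 to 13.9 TPM with vehicle. The groups overlapped for Cd79b (adjusted p = 0.231 by limma) and did not for Cd79a, which was below the level for testing. The part of these cells in the values of Thy1 and the other receptors was not tested.

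The 8 markers of CD4 and regulatory T cells summed to 926 to 1075 TPM with blebbistatin and 961 to 973 TPM with vehicle, mostly from Il2ra (851 ± 79.9 TPM with blebbistatin, 838 ± 9.62 TPM with vehicle), which activated CD8 cells also express. Of the 6 tested 0 passed in limma, and 2 had an unadjusted p under 0.05, against 22.9% of all genes. Those 2, named after their values were seen, were Ikzf2 and Ccr8, both higher with blebbistatin without overlap. Their log2 fold changes were 0.70 and 0.60 (adjusted p = 0.0896 and 0.0558 by limma). Over the 6 tested, 5 log2 fold changes lay above 0 and 1 below. The 1 below was that of Foxp3, the factor of regulatory T cells, also named after its values were seen. It stood at 1.23 ± 0.248 TPM with blebbistatin and 1.48 ± 0.317 TPM with vehicle, with overlap (-0.15, adjusted p = 0.602 by limma). The 5 gamma delta T cell markers found summed to 17.7 to 21.8 TPM with blebbistatin and 14.7 to 15.5 TPM with vehicle, nearly all from Trdc (adjusted p = 0.107 by limma). The 7 NK cell markers summed to 124 to 148 TPM with blebbistatin and 156 to 164 TPM with vehicle, of which Gzma, also made by cytotoxic T cells, held the most (107 ± 11.3 TPM with blebbistatin, 126 ± 3.24 TPM with vehicle). Of the 3 tested, Gzma and Eomes had log2 fold changes below 0 (-0.25 and -0.33) and Tyrobp above 0 (0.67). Eomes and Tyrobp were named after their values were seen. The 9 myeloid markers summed to 168 to 186 TPM with blebbistatin and 165 to 172 TPM with vehicle, mostly from Cst3 (71.6 ± 15.1 TPM with blebbistatin, 83.7 ± 0.429 TPM with vehicle) and Ctss (83.5 ± 5.32 TPM with blebbistatin, 69.3 ± 4.39 TPM with vehicle). Cd68, a macrophage marker, stood at 8.67 to 9.96 TPM with blebbistatin and 5.13 to 6.98 TPM with vehicle (adjusted p = 0.0843 by limma), while Csf1r and Adgre1 were below 0.2 TPM in all 6 libraries. The 7 stromal markers summed to 21.3 to 27.6 TPM with blebbistatin and 18.1 to 21.5 TPM with vehicle, nearly all from Pecam1, while Col3a1 and Dcn were listed at 0 in every library. Of the tested markers of gamma delta T cells, NK cells, myeloid cells and stroma, 0 passed in limma, and 1 of 1, 3 of 3, 2 of 4 and 0 of 1 had an unadjusted p under 0.05, against 22.9% of all genes.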

How the data were processed

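RNA sequencing of activated mouse CD8+ T cells was deposited as 1 gene table a library. Per the labels' protocols, RNA was prepared with TRIzol, and an Illumina TruSeq RNA kit gave the libraries. The build mm10 and the tools StringTie 1.3.4, HISAT2 2.1.0 and DESeq2 1.22.2 are listed, per the submitters' processing notes, without their roles. TPM and FPKM values were made by the authors, per the file headers, and the deposited coverage signal is mean read depth. Depth was read from coverage over FPKM, with 300 aligned bases, the commonest number in genes of low level, taken as 1 fragment. The tables hold no counts.

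Genes averaging 1 TPM or more were tested on log2(TPM + 1) with limma 3.58.1 in R 4.3.3 (trend, Benjamini-Hochberg at 0.05). Fold changes are on that scale, which understates changes of low genes. The genes described and the lists were chosen with earlier results of these data known. Named beyond the set were list genes that passed (up to 4, for markers 3, by size of change) and those of highest level, by a rule written into the design. Where a symbol had 2 rows, the higher was used. Ratios were compared by exact permutation tests, whose smallest p with 3 libraries a group is 0.1. Overlaps, length and GC came from GENCODE (GRCm38), which held 99.1% of gene identifiers. On data simulated from blebbistatin against vehicle with 13372 genes, the test found 59 of 100 genes with a 1.5-fold change and 85 of 100 with a 2-fold change, with 3 false calls. Simulated noise was independent between libraries with equal spread in both groups, and changed genes were not taken from the lowest levels. The real libraries share a main axis and differ in spread between groups for some genes, so these counts may not hold for them. Figures used matplotlib 3.10.9.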

Additional observations from a re-analysis of the deposited data

How the results depend on the processing

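The 18 alternatives changed the pseudocount, the minimum level, the unit (FPKM), the scaling (median-ratio or quantile), limma's options, the gene class, the replicate block, the length and GC correction or the set of libraries. The count of these receptors passing was 1 and became 0 with no minimum level, quantile scaling, no mean-variance trend, the replicate block or the length and GC correction (2, 5, 1, 1 and 2 had an unadjusted p under 0.05 by limma), and ran from 0 to 1 on leaving out a library. Thy1 kept its direction in all 18 and lost its call in 9, with log2 fold changes from -0.31 to -0.19. The other 8 did not pass in any. The 244 genes passing over all genes, 187 higher and 57 lower, became 49 with no minimum level, 160 with no mean-variance trend, and 543 with the length and GC correction, where 307 were higher and 236 lower. They ran from 3 to 1090 on leaving out a library.

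Same-numbered libraries did not deviate together (r of 0.011, -0.037 and -0.034 over genes). With 3 libraries a group and a wide spread among the blebbistatin libraries, this cannot decide whether the numbers pair them. With the replicate block 0 genes passed in limma and 2628 had an unadjusted p under 0.05, while Thy1 had an adjusted p of 0.152.

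The median log2 fold change of the 9 genes was 0.029, and -0.0017 with median-ratio scaling, 0.057 with quantile scaling, -0.0018 after the length and GC correction and 0.0086 to 0.053 on leaving out a library. Signs that turned were all of small changes that did not pass. Cd5 turned with median-ratio scaling (-0.0017), Cd8a after the length and GC correction (-0.053), and with quantile scaling Cd247 (0.025) and Cd2 (0.036) did. Cd247 and Cd2 also turned without blebbistatin 2 (0.023 and 0.027) and without vehicle 1 (0.0066 and 0.0047), and on leaving out a library ran from -0.038 to 0.023 and from -0.0202 to 0.027. The Cd247 to Cd3e log2 ratio difference ran from -0.012 to 0.13 on leaving out a library. Causes were not tested. Cd4 is limited by depth.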
